A study of Arabidopsis thaliana with 14 samples.

Results

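The 8 libraries described here are the 4 of WT FRI and the 4 of *vrn1-4* FRI taken after 1 week of cold, chosen by genotype and treatment from the 14 libraries of a targeted MNase-seq experiment on *FLC*. WT FRI is Arabidopsis Col-0 carrying an active *FRIGIDA* allele brought in from the accession San Feliu-2, and *vrn1-4* FRI is the mutant in the same background, so both genotypes share the active *FRIGIDA*. The mutant is 1 allele, which came from fast-neutron mutagenesis. Seeds of every library were first stratified on plates for 3 days at 4 °C. Whole seedlings were then grown for 10 days at 22 °C in 16 h of light and 8 h of dark and kept for 1 week at 5 °C (1W cold), while 3 further libraries of each genotype were taken before that week (warm). Each library came from 1.5 g of seedlings, whose nuclei (65 mg) were digested with 10 U of MNase for 30 min, so every value is an average over all cell types of the seedling. *VRN1* itself was not analysed here, so the genotype labels have no check in these data.

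*FLC* encodes a MADS-box transcription factor that represses flowering, and *FRIGIDA* keeps it highly transcribed in plants that have not seen winter. Prolonged cold lowers *FLC* transcription and brings Polycomb silencing to the gene. VRN1, a plant-specific protein with B3 DNA-binding domains, is needed for this repression to last. MNase removes DNA that is not held by histones, so that a protected fragment marks a nucleosome, its midpoint marks the position and its length marks how much of the wrap resisted the enzyme.

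The target region is 9568 bp of chromosome 5 (TAIR10). *FLC* (AT5G10140) lies there on the minus strand in 7 exons, with the end of exon 7 at 3173382, and distances below count from its transcription start site (TSS), positive downstream. A value here is a share, the percentage of a library's *FLC* fragments of 100 to 150 bp, and shares of one library sum to 100 by construction of the deposited fractions. A rise at one place therefore requires a fall elsewhere, and a change of the whole locus cannot be seen. Distinct fragments numbered 109647, 46448, 57743 and 67895 in the WT FRI cold libraries and 90058, 101045, 124173 and 86946 in the mutant ones. WT FRI 1W cold replicate 1 alone of its group lay within the range of the mutant. The smallest fraction of a cold library ran from 8.73e-07 to 3.67e-06, a 4.21-fold range. Totals were not given and counts were not inferred from the fractions. Between 0.0488% and 0.0760% of the fragments of the cold libraries had the midpoint outside the target.

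Libraries of one genotype were alike in their log2 shares over 100 bp bins (r of 0.947 to 0.996 over 6 pairs in WT FRI 1W cold and of 0.956 to 0.995 over 6 pairs in *vrn1-4* FRI 1W cold, across bins, which are not replicates). WT FRI 1W cold replicate 1 stood apart from its group. Its r reached 0.980 with a mutant library but at most 0.969 with another WT FRI 1W cold library. Among the mutant libraries, replicate 3 was the nearest to WT FRI (r of 0.946 to 0.980) and replicate 4 the farthest (0.858 to 0.924). For several results where leaving out a library changed a call or decided an overlap, the value without it is given.

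4 stretches of DNA described below, chosen for their values, are shown 5' to 3' along the gene strand from the TAIR10.1 reference of RefSeq. The first is the fragment of the +2 nucleosome, chr5:3179078-3179223, across the border of exon 1 and intron 1, whose capitals mark the shorter form described below. The second is the 100 bp with the highest log2 difference among the bins called, chr5:3179182-3179281, which is coding sequence of exon 1 and has an A+T content of 43%. The third is the bin with the lowest log2 difference, chr5:3180182-3180281 in the upstream flank, with 80% A+T. The fourth, chr5:3178982-3179081 at the start of intron 1, has 69% A+T. In the second to the fourth, capitals mark runs of A or T of at least 8 bases, of which the exon 1 bin has none.
+2 fragment: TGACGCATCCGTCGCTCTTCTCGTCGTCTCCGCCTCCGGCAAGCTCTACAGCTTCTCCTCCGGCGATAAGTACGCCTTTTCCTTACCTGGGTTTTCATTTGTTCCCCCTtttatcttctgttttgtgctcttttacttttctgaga
exon 1 bin: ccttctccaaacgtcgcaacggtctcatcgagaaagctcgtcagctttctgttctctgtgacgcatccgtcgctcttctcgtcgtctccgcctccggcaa
upstream bin: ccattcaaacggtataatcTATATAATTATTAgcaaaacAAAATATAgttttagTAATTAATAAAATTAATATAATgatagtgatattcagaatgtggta
intron 1 bin: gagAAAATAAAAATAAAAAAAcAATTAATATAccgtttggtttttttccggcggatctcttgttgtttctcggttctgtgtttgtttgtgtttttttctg

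Fragments over *FLC* were shorter in *vrn1-4* FRI than in WT FRI after cold. The mean length was 131.7, 132.9, 132.7 and 132.4 bp in the 4 WT FRI libraries and 128.3, 127.8, 129.6 and 126.4 bp in the 4 mutant libraries. No mutant library reached the shortest WT FRI value. The means were 132.4 ± 0.521 bp and 128.0 ± 1.31 bp (SD, n = 4 each), a difference of -4.42 bp with the smallest two-sided p that 4 libraries against 4 allow (exact permutation test, p = 0.0286, adjusted p = 0.0381 over 4 such values). With any one library left out the difference stayed between -4.95 and -3.88 bp. When each distinct fragment counted once, whatever its share, it was -2.19 bp (exact permutation test, p = 0.0286). In the warm the same difference was -1.78 bp (exact permutation test, p = 0.4, where 3 against 3 cannot go below 0.1). The WT FRI warm libraries were uneven, with 27911, 14166 and 90960 distinct fragments and mean lengths of 128.6, 125.4 and 130.7 bp. Those of the mutant in the warm held 77149, 63003 and 82621, with mean lengths of 127.2, 124.5 and 127.6 bp. The difference between the cold and the warm contrast was -2.64 bp and was not established (permutation of genotype within each temperature, p = 0.317). The part of the extent of MNase digestion in the difference in length was not tested.

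The lower mean went with fewer fragments near the full length and more short ones. A length of 145 bp was the most frequent in each of the 14 libraries. Lengths of 140 to 150 bp, close to a complete nucleosome wrap, made up 44.5%, 48.1%, 46.7% and 45.9% of fragments in WT FRI and 33.4%, 31.7%, 37.8% and 29.0% in *vrn1-4* FRI. This is 0.712 of the WT FRI mean, and the groups did not overlap (exact permutation test, p = 0.0286, adjusted p = 0.0357 over 5 length classes). Lengths of 100 to 109 bp were at 14.2 ± 1.20% in WT FRI and 20.2 ± 1.60% in the mutant (SD, n = 4), 1.42-fold higher by the same test and with the same adjusted p. The classes from 110 to 119 bp and from 120 to 129 bp were 1.33-fold and 1.37-fold higher, again without overlap. Between 130 and 139 bp the share was 19.3 ± 0.745% and 19.5 ± 0.919% (exact permutation test, p = 0.714). In the warm, lengths of 140 to 150 bp took 34.0 ± 6.83% in WT FRI and 28.4 ± 4.36% in the mutant, and lengths of 100 to 109 bp took 19.8 ± 3.56% and 22.1 ± 1.98% (SD, n = 3), so that the cold values lay farther from the warm ones in WT FRI than in the mutant. For neither class were the cold and warm differences shown to differ (permutation within each temperature, p = 0.303 and 0.279).

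**Figure D1:**
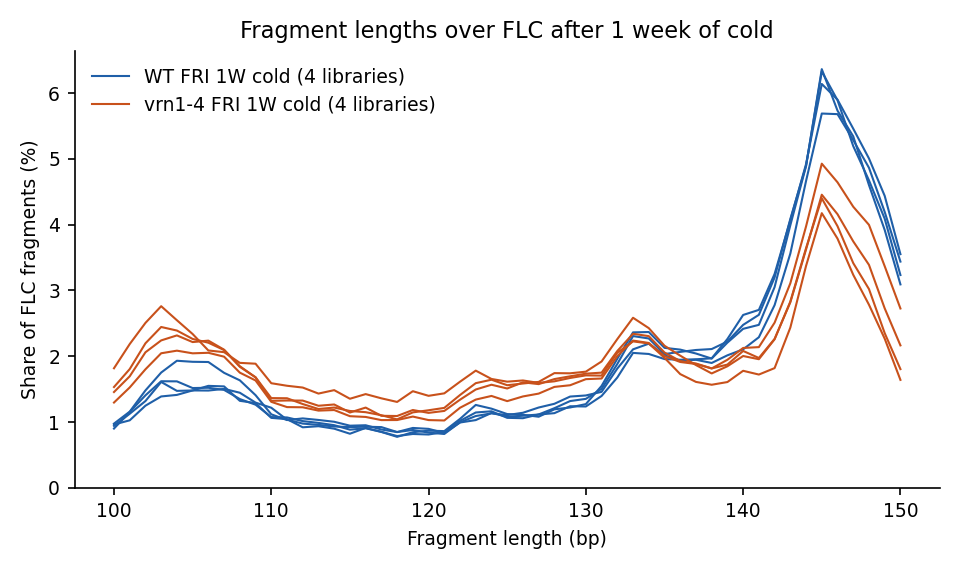
Share of *FLC* fragments (%) at each length (bp) in the 8 cold libraries, 1 line per library. The mutant lines lie below the WT FRI lines around the peak at 145 bp and above them at the shortest lengths.

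Tested length by length with limma over all 14 libraries, 44 of the 51 lengths (86.3%) passed an adjusted p of 0.05, of which 32 (62.7%) were higher in the mutant and 12 (23.5%) lower. At 46 lengths (90.2%) the 4 and 4 libraries did not overlap. In the warm 2 lengths (3.92%) passed, both higher, and 9 had an unadjusted p under 0.05. No length passed for a difference between the cold and the warm contrast (5 had an unadjusted p under 0.05). The length with the smallest p, between 120 and 130 bp, took 1.14%, 1.10%, 1.06% and 1.11% in WT FRI and 1.60%, 1.59%, 1.39% and 1.63% in the mutant (log2 difference 0.49, standard error 0.0824, adjusted p = 0.00061 from limma). The mutant values were all above those of WT FRI. Lengths of 128 and 101 bp were higher by 0.44 and 0.68 on the log2 scale. At the other end, 150 bp took 3.44%, 3.55%, 3.23% and 3.09% in WT FRI and 2.17%, 1.80%, 2.73% and 1.64% in the mutant (log2 difference -0.70, standard error 0.152, adjusted p = 0.00107 from limma). Lengths of 149 and 146 bp had log2 differences of -0.65 and -0.49. Since lengths above 150 and below 100 bp were removed before deposition, fragments that crossed either limit are not in these shares.

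The shortening ran along nearly the whole locus. The mean fragment length was lower in the mutant in 89 of 96 bins of 100 bp (92.7%, limma, adjusted p under 0.05) and higher in none, with a median difference of -4.84 bp, and the 4 and 4 libraries did not overlap in 90 bins (93.8%). These bins are not independent, because all share the library's own length distribution, and limma gave each the same standard error of 1.36 bp. Once each library's mean length was subtracted, 8 bins (8.33%) were still shorter and 5 (5.21%) longer. The most shortened bins lay outside the exons. In the downstream flank from 3173082 to 3173181, mean lengths were 128.6, 132.7, 134.5 and 133.1 bp in WT FRI and 123.1, 123.2, 124.6 and 119.99 bp in the mutant, a difference of -9.49 bp (adjusted p = 5.63e-10 from limma). In the upstream flank, the bins from 3180682 to 3180781 and from 3179882 to 3179981 differed by -9.36 and -8.11 bp. In intron 1, those from 3178782 to 3178881 and from 3178182 to 3178281 differed by -7.19 and -7.09 bp. Among all 96 bins 1 had a longer mean in the mutant, the upstream bin from 3180282 to 3180381, by 0.25 bp (adjusted p = 0.857 from limma), and its sign turned without *vrn1-4* FRI 1W cold replicate 1 (-0.72 bp) or replicate 4 (-0.36 bp).

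Each named nucleosome was shorter as well, by less than the difference of -4.42 bp over all *FLC* fragments. Windows of midpoints were set for the -1 nucleosome upstream of the TSS, the TSS gap, the +1, +2 and +3 nucleosomes and the nucleosome near the transcription termination site (TTS), whose window is centred 5641 bp downstream of the TSS. The difference in mean length was -4.03 bp at -1, -4.61 bp in the TSS gap, -3.54 bp at +1, -2.76 bp at +2, -2.15 bp at +3 and -2.60 bp near the TTS. The groups did not overlap in any of the 6 windows (exact permutation test, p = 0.0286 each, adjusted p = 0.0286 over 6). Like the bins, the windows share each library's length distribution, so these tests are not independent of that of the mean length. At +1, fragments of 140 to 150 bp were 47.9 ± 4.21% of the window's fragments in WT FRI and 33.6 ± 3.33% in the mutant (SD, n = 4).

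At the +2 nucleosome, fragments that share an end differed in length. The single fragment whose mean share in the cold most exceeded that of WT FRI was the 109 bp form in capitals above, from 3179115 to 3179223, which keeps the end nearest the TSS, 225 bp downstream of it, and lacks 37 bases on the intron 1 side of the 146 bp form. It took 0.0206%, 0.0320%, 0.0417% and 0.0408% of *FLC* fragments in WT FRI and 0.0849%, 0.1001%, 0.0659% and 0.129% in the mutant, 2.81 times the WT FRI mean. The groups were apart, but this fragment was picked for its difference, so the ratio is a description. In the warm it took 0.137%, 0.104% and 0.0739% in WT FRI and 0.0770%, 0.119% and 0.114% in the mutant, so the mutant's cold values lay around its warm ones and those of WT FRI lay below its own. Other short forms with this end did not all have a higher mean in the mutant. The 146 bp form with the same end took 0.0650%, 0.120%, 0.164% and 0.119% in WT FRI and 0.0669%, 0.0790%, 0.0893% and 0.0244% in the mutant, with overlap. All fragments with this end together took 0.740 ± 0.252% in WT FRI and 0.788 ± 0.143% in the mutant (SD, n = 4; exact permutation test, p = 0.8). Within them, the mean length was 135.3 ± 0.296 bp and 130.0 ± 3.05 bp, and lengths of 140 to 150 bp made up 41.2 ± 2.30% and 24.0 ± 8.96%. Both measures were without overlap between the groups. They are given without a test, because the end was chosen through that fragment.

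**Figure D2:**
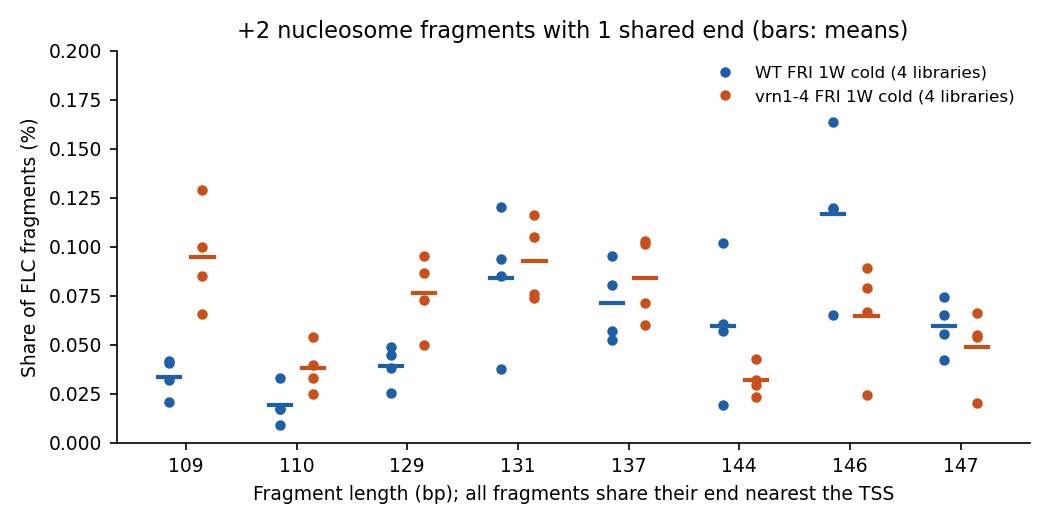
Share of *FLC* fragments (%) for the 8 most frequent lengths (bp) of +2 fragments that share the end nearest the TSS, 1 point per cold library and a bar at each mean. The 109 bp form is higher in all 4 mutant libraries, while the 146 bp form overlaps between the genotypes.

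Fragments were also distributed differently along *FLC*. In 96 bins of 100 bp, tested by limma on log2(share + 0.0001) over all 14 libraries, 41 bins (42.7%) passed an adjusted p of 0.05 in the cold, 12 higher (12.5%) and 29 lower (30.2%) in the mutant, and 47 had an unadjusted p under 0.05. The median log2 difference over all bins was -0.10, and with each library centred on its median bin the split was 17 higher and 26 lower. The 4 and 4 libraries did not overlap in 31 of the 96 bins (32.3%). Of the 35 bins of intron 1, 12 were lower and 2 higher, and of the 11 bins over exon 6 and intron 6, 7 were lower and 1 higher. The 25 bins of the upstream flank held 7 lower and 3 higher, and the 3 bins of exon 1 held 1 higher and none lower. Other settings changed the count by more than 1.5 times, to 9 bins when each distinct fragment counted once and to 22 (22.9%) when each library's dependence on A+T content was removed.

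The warm libraries showed differences of the same sign at most bins. In the warm 35 bins (36.5%) passed, 8 higher (8.33%) and 27 lower (28.1%) in the mutant. All 41 bins called in the cold had the same sign in the warm, where 31 of them were also called, against the same sign in 82 of all 96 bins. The cold and warm contrasts differed in 1 bin (1.04%) after adjustment and in 5 before it.

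**Figure D3:**
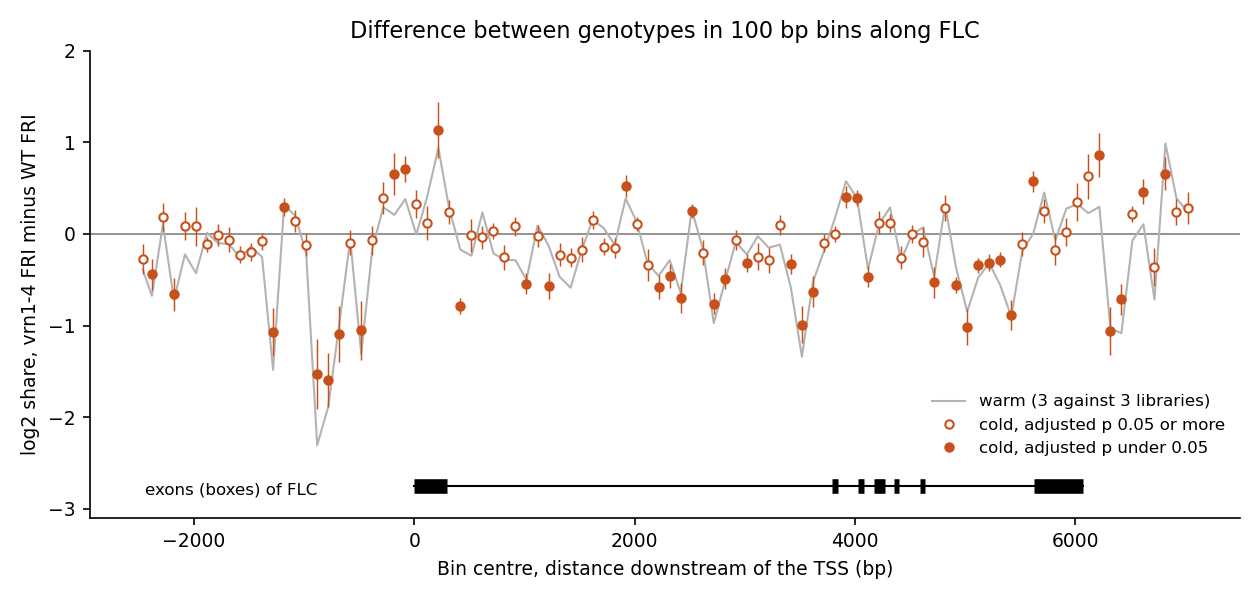
Log2 difference in share between *vrn1-4* FRI and WT FRI in 100 bp bins by distance from the TSS (bp), with points and standard errors for the cold (filled where the adjusted p is under 0.05) and a grey line for the warm. The cold points follow the warm line over most of the locus, and the bin 417 bp downstream of the TSS lies below it.

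The exception was the start of intron 1 at the +3 nucleosome, the fourth sequence above, centred 417 bp downstream of the TSS. The bin from 3178982 to 3179081 took 1.06%, 1.09%, 1.03% and 0.938% in WT FRI 1W cold and 0.630%, 0.572%, 0.637% and 0.534% in *vrn1-4* FRI 1W cold. The mutant values were all below the lowest of WT FRI. The log2 difference was -0.79 (standard error 0.0865, adjusted p = 3.19e-05 from limma), with the smallest p of all bins. In the warm the libraries took 0.692%, 0.687% and 0.733% in WT FRI and 0.598%, 0.671% and 0.605% in the mutant, a log2 difference of -0.17 (adjusted p = 0.192 from limma). The contrast in the cold exceeded that in the warm by -0.61 (standard error 0.132, adjusted p = 0.0373 from limma). Of the 14 libraries, removing any of 12 ended that last call, the exceptions being WT FRI 1W cold replicate 4 and *vrn1-4* FRI 1W cold replicate 3. It was also lost with fragments of 120 to 150 bp alone.

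Other bins, in the introns and the upstream flank, were lower in both cold and warm. Within intron 1, the bin from 3176682 to 3176781 took 1.18%, 1.49%, 1.58% and 1.61% in WT FRI and 0.769%, 0.940%, 0.949% and 0.782% in the mutant (log2 difference -0.76, adjusted p = 0.000568 from limma). In intron 6, the bins from 3174482 to 3174581 and from 3173982 to 3174081 had log2 differences of -0.56 and -0.89. The upstream bin from 3180182 to 3180281 had the lowest log2 difference, -1.60 (standard error 0.299, adjusted p = 0.00209 from limma), at low shares of 0.0363%, 0.105%, 0.0899% and 0.0571% in WT FRI and 0.00977%, 0.0138%, 0.0378% and 0.00894% in the mutant. The groups overlapped there through WT FRI replicate 1 and mutant replicate 3, and the log2 difference was -1.84 without the former and -1.90 without the latter. Warm log2 differences of these 4 bins were -0.97, -0.37, -0.90 and -1.89 in the same order.

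The 5 bins of smallest p among the 12 that were higher lay beside the TSS, near the TTS and in 3 stretches within the gene. Just upstream of the TSS, the bin from 3179482 to 3179581 took 0.915%, 0.662%, 0.688% and 0.683% in WT FRI and 1.20%, 1.05%, 1.13% and 1.45% in the mutant (log2 difference 0.71, standard error 0.141, adjusted p = 0.00233 from limma). All mutant values were higher. The bin from 3173782 to 3173881, at the border of intron 6 and exon 7, took 2.63%, 2.47%, 2.95% and 3.17% in WT FRI and 3.95%, 4.26%, 3.58% and 5.00% in the mutant (log2 difference 0.58, standard error 0.115, adjusted p = 0.00233 from limma). Its warm difference was 0.01, but the cold and warm contrasts were not shown to differ (adjusted p = 0.28 from limma). Exon 1 from 3179182 to 3179281, the second sequence above, took 1.27%, 0.566%, 0.574% and 0.669% in WT FRI and 1.61%, 1.21%, 1.26% and 2.69% in the mutant (log2 difference 1.13, standard error 0.302, adjusted p = 0.00866 from limma). WT FRI replicate 1 lay within the range of the mutant here, and without it the log2 difference was 1.40. The bins from 3175382 to 3175481 over intron 2 and exon 3 and from 3177482 to 3177581 in intron 1 were higher by 0.40 and 0.53 on the log2 scale.

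**Figure D4:**
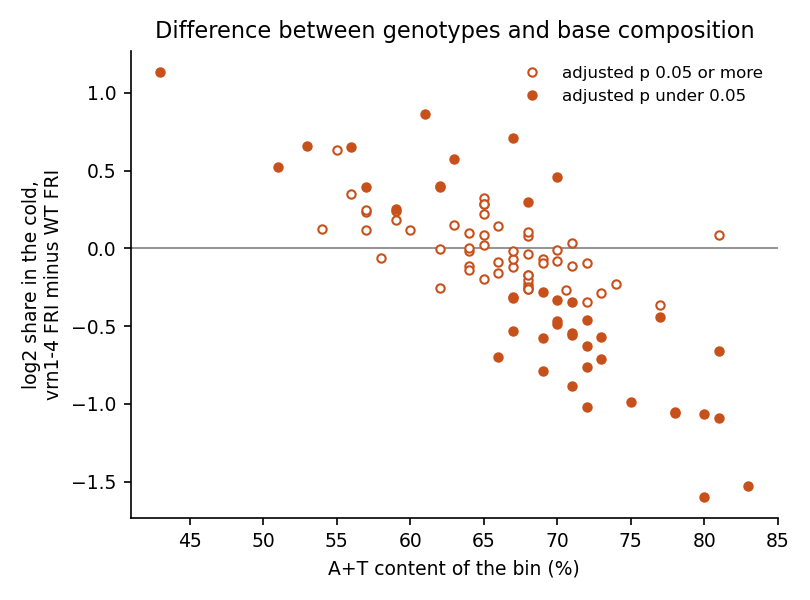
Log2 difference in share in the cold against the A+T content (%) of each of the 96 bins, filled where the adjusted p is under 0.05. The differences run from above 0 in the bins of low A+T content to below -1 in several bins of high A+T content.

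The direction of the difference went with base composition. Over the 96 bins the log2 difference in the cold had a Pearson's r of -0.78 with A+T content, and the warm difference one of -0.81, as a description across bins that share the same libraries. The 15 bins under 60% A+T had a median log2 difference of 0.25, with 6 called higher and none lower. The 11 bins of 75% and over had a median of -1.05, with 9 called lower and none higher. Within libraries, the log2 share changed by -0.630 ± 0.172 per 10% of A+T in WT FRI 1W cold and by -1.18 ± 0.250 in *vrn1-4* FRI 1W cold (SD, n = 4), without overlap (exact permutation test, p = 0.0286, a comparison chosen after the pattern was seen). WT FRI replicate 1 had the steepest value of its group, -0.849, and mutant replicate 3 the shallowest of its own, -0.890. The fragments themselves were 64.5 ± 0.511% A+T in WT FRI and 62.8 ± 0.580% in the mutant (SD, n = 4), a description of the same libraries and pattern, given without a test. MNase is known to cut preferentially at A and T, and the first base at the fragment ends was A or T in 90.4 ± 2.22% and 90.3 ± 1.11% of fragments (SD, n = 4), against 67.1% in the target region. The part of digestion in the differences between bins and in fragment length was not tested.

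With each library's linear dependence on A+T content removed, an alternative chosen after seeing the data, 22 bins (22.9%) passed in the cold, 12 higher (12.5%) and 10 lower (10.4%). They included 5 of the 12 bins first called higher and 8 of the 29 first called lower. The bin at the start of intron 1 remained lower (log2 difference -0.54, adjusted p = 0.000781 from limma) and its contrast still differed between cold and warm (adjusted p = 0.00596 from limma). The bin upstream of the TSS and that near the TTS remained higher, by 0.85 and 0.50 on the log2 scale. The higher bins in exon 1, in intron 2 and exon 3 and at 3177482 in intron 1 turned to -0.03, -0.01 and -0.20. Giving all libraries the same length distribution changed less, with 43 bins (44.8%) called, among them 10 of the 12 higher and 26 of the 29 lower.

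By exon, intron and flank, 0 of 15 features passed an adjusted p of 0.05 by the exact permutation test (5 had an unadjusted p under 0.05, and the lowest adjusted p was 0.0779), while limma on the same shares, added after seeing the data, called 10 of 15 (66.7%), 5 higher and 5 lower. With 4 libraries against 4 the exact permutation test cannot go below p = 0.0286. Whether any of 15 features passes therefore depends on how many reach that floor, not on how large their differences are. Without WT FRI 1W cold replicate 1 the exact test called 9. Intron 1, which holds sequences needed for stable repression of *FLC*, took 37.1%, 39.6%, 40.0% and 39.8% in WT FRI and 35.3%, 35.8%, 36.0% and 32.7% in the mutant (exact permutation test, p = 0.0286, adjusted p = 0.0779). Exon 1, with the start of the coding sequence, took 5.75%, 4.20%, 4.59% and 4.82% in WT FRI and 6.82%, 6.52%, 5.20% and 7.75% in the mutant (exact permutation test, p = 0.0571). The upstream flank took 20.3 ± 0.501% and 20.4 ± 0.516% and the downstream flank 7.76 ± 0.600% and 8.97 ± 0.592% (SD, n = 4). The sign of the small upstream difference, 0.112, turned without WT FRI 1W cold replicate 4 or *vrn1-4* FRI 1W cold replicate 3. Outside the rule for named features, and chosen after their values were seen, intron 2, intron 3, intron 6 and exon 7 had mutant means of 1.34, 0.648, 0.800 and 1.38 times those of WT FRI, without overlap between the groups (33.3% of the 15 features, intron 1 included, had no overlap).

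**Figure D5:**
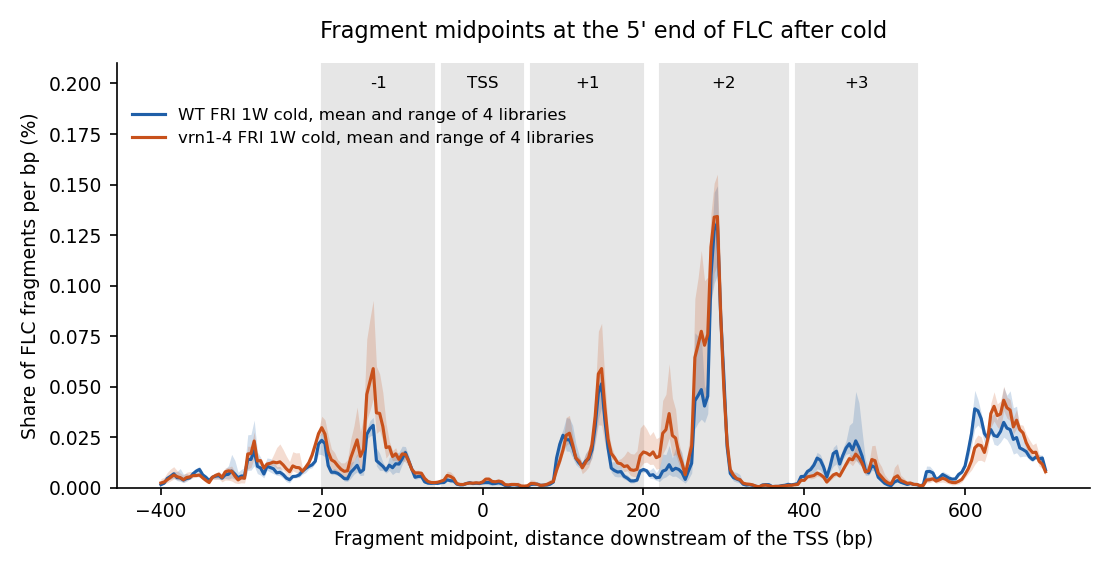
Share of *FLC* fragments per bp (%) by midpoint distance from the TSS (bp) after cold, as the mean (line) and range (band) of 4 libraries per genotype, averaged over 11 bp, with the nucleosome windows in grey. The mutant line is higher at the -1 nucleosome and lower over most of the +3 window, and both lines have their +1 peak near 148 bp.

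At the 5' end, the shares of the windows differed without passing the adjustment over 6 windows (0 of 6 by the exact permutation test, 3 with an unadjusted p under 0.05). The -1 window took 1.76%, 1.52%, 1.34% and 1.47% in WT FRI and 2.39%, 2.03%, 2.32% and 3.60% in the mutant, 1.70 times the WT FRI mean (exact permutation test, p = 0.0286, adjusted p = 0.0571). The +3 window took 1.61%, 1.43%, 1.35% and 1.28% in WT FRI and 1.02%, 0.920%, 1.03% and 1.18% in the mutant, 0.733 times, by the same test and p. The window near the TTS was at 3.34 ± 0.273% and 4.93 ± 0.630% (SD, n = 4), 1.47 times, again with p = 0.0286 in the exact test. At +2 the means were 3.53 ± 0.426% and 4.65 ± 0.810%, at +1 they were 1.93 ± 0.287% and 2.29 ± 0.236%, and in the TSS gap 0.216 ± 0.0257% and 0.288 ± 0.0573% (SD, n = 4; exact permutation tests, p = 0.0571, 0.114 and 0.0571). Here too the number of windows at the exact test's floor of p = 0.0286 decides whether any passes. Without *vrn1-4* FRI 1W cold replicate 2, or without its replicate 3, 4 of the 6 windows passed.

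The most frequent midpoint was compared without a test. At -1 it lay between -141 and -136 bp in WT FRI and at -135 or -136 bp in the mutant. At +1 it lay at 147 or 148 bp in WT FRI and at 148 bp in 3 mutant libraries, and in *vrn1-4* FRI 1W cold replicate 4 at 200 bp, the edge of the window. Near the TTS it lay between 5640 and 5642 bp in all 8 libraries. The +3 nucleosome spread more, with 465, 454, 440 and 440 bp in WT FRI and 465, 465, 465 and 489 bp in the mutant, where the groups shared 465 bp.

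The mean midpoint of the first 200 bp after the TSS lay farther downstream in the mutant. It was 129.8, 125.4, 129.5 and 130.4 bp in WT FRI and 131.9, 135.1, 133.6 and 136.1 bp in the mutant, without overlap. The difference was 5.41 bp (exact permutation test, p = 0.0286, adjusted p = 0.0381 over 4 such values). It was 4.27 bp without WT FRI 1W cold replicate 2 (exact permutation test, p = 0.0571), and 0.703 bp when each distinct fragment counted once (exact permutation test, p = 0.6). In the warm the difference was 2.78 bp, and the cold and warm differences were not shown to differ (permutation within each temperature, p = 0.407). At 200 bp, the edge of this span, the WT FRI 1W cold libraries had 0.00782% to 0.00988% of fragments per bp. The *vrn1-4* FRI 1W cold libraries had 0.0123% to 0.0315% there, the highest in replicate 4. The part of fragments near this edge in the mean midpoint was not tested, and the most frequent +1 midpoint lay at 148 bp in 3 mutant libraries.

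The balance between the TSS-proximal and TSS-distal midpoints of the +1 nucleosome, a log2 ratio of adjoining windows, was -0.63, -0.45, -0.74 and -0.70 in WT FRI and -0.88, -1.41, -1.18 and -0.75 in the mutant. All 4 mutant values were below those of WT FRI, though replicate 4 of the mutant lay close to WT FRI replicate 3. The difference was -0.43 (exact permutation test, p = 0.0286, adjusted p = 0.0381). The proximal share was 0.711 ± 0.105% and 0.665 ± 0.0887% and the distal share 1.10 ± 0.189% and 1.40 ± 0.290% (SD, n = 4), and neither differed beyond the spread (exact permutation tests, p = 0.543 and 0.143). The call was lost without any one of the 4 WT FRI 1W cold libraries (differences of -0.46 to -0.37, exact permutation tests, p = 0.0571 to 0.114). The groups still did not overlap then, and 3 libraries against 4 leave fewer arrangements for the test. In the warm the log2 ratio differed by 0.08 (exact permutation test, p = 0.7), and the cold and warm differences were not shown to differ (p = 0.107 by permutation within each temperature).

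The effective number of 10 bp positions, which is lower when fragments concentrate on fewer places, was 600.1, 603.8, 567.7 and 571.4 in WT FRI and 527.9, 535.3, 590.2 and 502.3 in the mutant. 3 mutant libraries lay below all of WT FRI and replicate 3 lay among them. The difference of -46.8 did not pass (exact permutation test, p = 0.0857), while without *vrn1-4* FRI 1W cold replicate 3 it was -63.9 (exact permutation test, p = 0.0286).

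The most frequent single fragment in WT FRI 1W cold was one of 145 bp in intron 1, from 3177866 to 3178010, at 0.0953%, 0.207%, 0.324% and 0.292% of *FLC* fragments, against 0.121%, 0.141%, 0.104% and 0.0999% in the mutant. WT FRI replicate 1 lay below all mutant values. In *vrn1-4* FRI 1W cold the most frequent was one of 148 bp at the TTS-proximal nucleosome, from 3173736 to 3173883, at 0.186%, 0.166%, 0.162% and 0.153%, against 0.121%, 0.0687%, 0.138% and 0.135% in WT FRI.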

How the data were processed

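Targeted MNase-seq fragments of *FLC* were analysed in 14 libraries, 8 of them after 1 week of cold, grouped by their labels. The authors trimmed reads with fastp, aligned them to TAIR10 with Bowtie2, selected loci with SAMtools 1.5, rebuilt fragments from read pairs, kept 100 to 150 bp and deposited for each distinct fragment a fraction of its library's *FLC* fragments, with the other deposited columns holding start and length in bp. Whether PCR duplicates were removed is not given in the sources used here. Only fractions are given, without totals. Counts were not inferred from them and no counting interval was computed, so precision rests on the spread between libraries.

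Midpoints were summed by bin, feature, window and length. The 237 baits over *FLC* matched the reference at their coordinates. Across bins and lengths limma 3.58.1 (R 4.3.3) was used on log2(share + 0.0001), which understates changes of low shares, or on mean length, with all 14 libraries, a minimum mean share of 0.0001 and Benjamini-Hochberg adjustment. Other values had two-sided exact permutation tests over 70 arrangements, or 1400 for cold against warm. Named bins were the 5 of smallest p in each direction among those called (the 2 of smallest p where none was called), named lengths the 3 of smallest p, and named features exon 1, intron 1, the flanks and any called. Members, windows and lists were chosen with earlier results of these data known. Alternatives covered left-out libraries, fragment weighting, lengths, thinning, pairing, pseudocount, bins and windows. Limma was tested on simulated data. Control loci were not used here. Python 3.11.15, numpy 2.4.6 and pandas 2.3.3 were used.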

Additional observations from a re-analysis of the deposited data

Results flagged for a closer look

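In 2 bins a test of the genotype difference in the cold against that in the warm passed, each with limits. The contrast of the 100 bp bin at the start of intron 1, centred 417 bp downstream of the TSS, was lower in the cold than in the warm by a log2 value of -0.61 (limma, adjusted p = 0.0373), a call lost without any of 12 of the 14 libraries and with 120 to 150 bp alone. In the upstream bin from 3180282 to 3180381 the mean fragment length of the mutant exceeded that of WT FRI by 9.38 bp in the warm and by 0.25 bp in the cold, a difference of -9.13 bp (limma, adjusted p = 0.00122). That p rests on the 1 standard error limma gave all bins, 2.08 bp for this difference, while the SD between libraries in this bin was 3.19 bp in *vrn1-4* FRI 1W cold and 3.46 and 4.36 bp in WT FRI and the mutant in the warm. That bin held 0.0884% of fragments in WT FRI 1W cold and 0.0306% in *vrn1-4* FRI 1W cold.

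A single library lay far from the other 3 of its group in 7 of 90 groups of 4 values, where chance gives about 1 in 20. WT FRI 1W cold replicate 1 was the one in 5 of them. Its first bases were A or T in 87.1% of fragments (others 91.4% to 91.8%). Its intron 1 share was 37.1% (others 39.6% to 40.0%) and its intron 3 share 0.749% (others 1.08% to 1.14%). The exon 1 bin from 3179182 held 1.27% of its fragments (others 0.566% to 0.669%) and the bin from 3179482 upstream of the TSS 0.915% (others 0.662% to 0.688%). WT FRI 1W cold replicate 2 had a mean midpoint of 125.4 bp (others 129.5 to 130.4 bp). In *vrn1-4* FRI 1W cold replicate 3 the upstream bin from 3180182 held 0.0378% (others 0.00894% to 0.0138%).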

How the results depend on the processing

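The shorter fragments of the mutant after cold kept their direction under all alternatives run, and the exact p of the mean length rose above 0.05 in none but the paired test. The replicate numbers were not taken to pair the libraries. Between the genotypes, r of the deviations of same-numbered libraries was 0.0234 to 0.396 and over 0.1 in 3 of 4 pairs. Those values lay within the range of the 12 pairs of different number, -0.611 to 0.707, of which 5 were over 0.1. With the replicate block, whose exact sign-flip test over 4 pairs cannot reach 0.05, mean length differed by -4.42 bp, the mean midpoint by 5.41 bp and the log2 proximal to distal ratio by -0.43, all without a call, while limma called 35 bins, 46 lengths and 94 bins by mean length.

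Leaving out 1 library in turn gave mean midpoint differences of 4.27 to 6.18 bp, log2 ratios of -0.53 to -0.31, effective position differences of -63.9 to -34.6, 0 to 9 features, 0 to 4 windows, upstream flank differences of -0.139 to 0.323, a mean length difference of -0.72 to 1.69 bp in the upstream bin from 3180282, and 0 to 1 bins whose contrast differed between cold and warm (0 also with 120 to 150 bp).

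Counting each distinct fragment once took the mean length difference to -2.19 bp, the midpoint difference to 0.703 bp, the log2 ratio to -0.15 and the bins called to 9. With 20000 fragments drawn per library the midpoint difference was 5.86 bp (exact permutation test, p = 0.0571). With 120 to 150 bp alone mean length differed by -2.23 bp, by construction over a narrower range, the log2 ratio was -0.40, without a call, the upstream flank difference -0.0869 and the length difference of the bin from 3180282 -0.11 bp. With both windows 10 bp nearer the TSS the log2 ratio was -0.36, without a call, and with all windows 10 bp upstream 4 windows passed. By construction the number tested set part of the counts of 76 bins at 50 bp, 24 at 200 bp, 46 by mean length at 200 bp and 9 length classes of 5 bp. Subtracting each library's mean length left 13 bins by mean length. The A+T correction, added after seeing the data, left 22 bins and turned those from 3175382, 3177482 and 3179182 to -0.0077, -0.20 and -0.032, and limma in place of the exact test, also added, called 10 features. For the other losses the cause was not tested. Since counts were not inferred, the counting error of rare fragments was not computed.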
